A study of Arabidopsis thaliana with 6 samples.

Results

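The flowering repressors described here are 7 MADS-box genes of Arabidopsis thaliana, chosen by their locus: SVP (AT2G22540), FLC (AT5G10140), FLM (AT1G77080, also MAF1), MAF2 (AT5G65050), MAF3 (AT5G65060), MAF4 (AT5G65070) and MAF5 (AT5G65080). They are 7 of 27444 protein-coding nuclear genes of the gene table used. A peak was counted to a gene where its summit, the position of highest enrichment, fell inside the gene or no more than 3 kb outside it. The 7 genes held 3 of 3601 SEP3tet peaks and 2 of 2225 SEP3wt peaks.

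The peaks come from chromatin immunoprecipitation followed by sequencing (ChIP-seq) on inflorescences, with a native antibody against SEPALLATA3 (SEP3), a MADS-domain factor of floral organ identity. The SEP3tet group had the genotype pSEP3:SEP3tet;sep1,2,3, in which a SEP3 that cannot form tetramers is expressed from a transgene labelled with the SEP3 promoter. The SEP3wt group had the genotype pSEP3:SEP3wt;sep1,2,3, with wild-type SEP3 from the same promoter, so both groups share the sep1,2,3 background and the promoter of the transgene. Plants grew at 22 °C in long days (16 h light, 8 h dark), each group had 2 ChIP samples, and each line had 1 mock sample with pre-immune serum, whose signal was not analysed here. The comparison asks where SEP3 sits at these genes when it can and cannot form tetramers. The groups are different transgenic lines whose transgene levels were not measured here. The ability to form tetramers therefore cannot be told apart from other differences between the lines. The depth of the libraries is unknown, and each line gave 1 peak list, so replicate spread could not be measured and no test was made. The labelled tissue could not be checked against markers, since peaks give no expression level. A gene without a peak is one without a called peak at this depth, not one shown to be unbound.

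SVP, FLC, FLM and the MAF genes encode MADS-domain proteins that hold back flowering. SVP acts in complexes with FLC and with FLM, and these complexes repress the flowering promoters FT and SOC1. FLC is silenced by prolonged cold in vernalization, while SVP and FLM take part in the response to ambient temperature. SVP also acts inside the young flower, where together with AGL24 and SOC1 it keeps SEP3 off in early floral meristems.

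SEP3 peaks were found at SVP in both lines, 1 to 3 kb from FLC in SEP3tet only, and at none of FLM, MAF2, MAF3, MAF4 and MAF5. In SEP3tet 2 of the 7 genes had a summit, against a background of 21.2% of all protein-coding genes. In SEP3wt 1 of the 7 had one, against a background of 13.7%. Read against these shares, neither count sets the 7 genes apart. SVP was the only member with a summit in both lines, a state shared by 12.4% of genes. FLC was the only member with a summit in SEP3tet alone (8.79% of genes), and no member had one in SEP3wt alone (1.30% of genes). The other 5 had a summit in neither line, as did 77.5% of genes.

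SVP, the gene for the repressor that partners FLC and FLM, carried 2 summits in each line, 1 in the gene body and 1 at 1 to 3 kb from the gene. At least 2 summits in each line were found at 2.01% of protein-coding genes. A gene-body summit was found at 4.53% of genes in SEP3tet, at 3.11% in SEP3wt and at 2.46% in both. On chromosome 2 of build TAIR10, the gene-body peak spanned 9579868 to 9580421 in SEP3tet (554 bp) and 9580047 to 9580390 in SEP3wt (344 bp). The outer peak spanned 9577481 to 9577903 in SEP3tet (423 bp) and 9577578 to 9577759 in SEP3wt (182 bp). All SEP3wt positions of both SVP peaks lay inside the corresponding SEP3tet peaks.

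The gene-body summit was nearest to SVP itself, whereas the outer summit lay closest to the neighbouring gene AT2G22530, within 1 kb of it. Both summits also fell in the 3-kb window of AT2G22530, so these data do not assign the outer peak to one gene. The summits stood 2530 bp apart in SEP3tet and 2523 bp apart in SEP3wt. Between lines the gene-body summits were 34 bp apart and the outer summits 41 bp apart. The median over the 1726 one-to-one pairs of overlapping peaks was 25 bp, and 39.9% and 33.7% of these pairs had summits farther apart than those of the gene-body and outer pair. Both SVP gaps were above this median, and many other shared peaks had larger gaps.

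The strength of both SVP peaks is given by the fold enrichment of ChIP signal at the summit over the background of the peak caller, and by −log10 q, the significance of the peak after correction; both are the authors' values. In SEP3tet the outer peak had a fold of 7.36 and a −log10 q of 26.7, rank 166 of 3601 peaks by fold. In the same list the gene-body peak had a fold of 6.78 and a −log10 q of 23.2, rank 244. Both lay far above the SEP3tet median fold of 3.65. In SEP3wt the outer peak had a fold of 3.48 and a −log10 q of 6.04, rank 1013 of 2225. The SEP3wt gene-body peak had a fold of 5.33 and a −log10 q of 16.6, rank 273. Here only the gene-body peak stood well above the median fold of the list, 3.38, and the outer peak lay close to it.

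**Figure D1:**
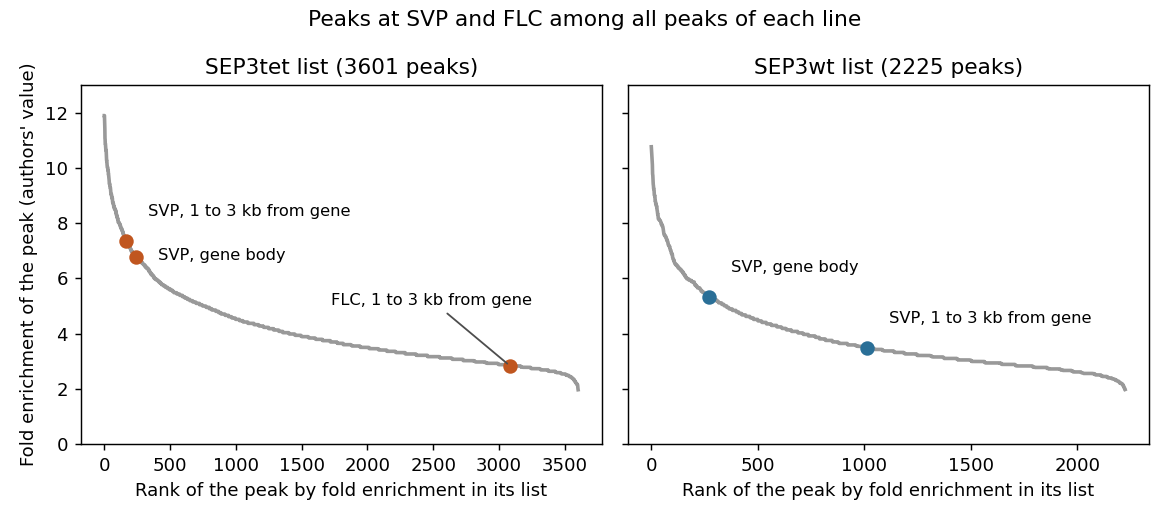
Fold enrichment (y axis) of every peak against its rank in its own list (x axis), with SEP3tet on the left and SEP3wt on the right; grey lines are all peaks and coloured points the peaks counted to SVP and FLC. Both SVP peaks of SEP3tet sit near the top of the list at 7.36 and 6.78, those of SEP3wt at 3.48 and 5.33, and the FLC peak of SEP3tet at 2.83.

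By its strongest peak, SVP ranked high among the genes with a summit in either line. The ranking takes the stronger of 2 SVP summits in each line and was not adjusted for the number of summits per gene. In SEP3tet 335 of 5814 genes with a summit (5.76%) had a stronger one, and the median strongest fold of these genes was 3.89. In SEP3wt 562 of 3759 genes (15.0%) had a stronger one, with a median of 3.59. The strongest SVP peak was the outer one in SEP3tet and the gene-body one in SEP3wt. The SEP3tet rank thus rests on a peak that lay nearest to AT2G22530 and that these data do not assign to one gene.

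The order of both SVP sites differed between the lists. The outer peak had 1.09 times the fold of the gene-body peak in SEP3tet and 0.654 times that fold in SEP3wt. These ratios, each taken within 1 list, differ 1.66-fold. Such a shift was not rare: of 279 neighbouring pairs of shared sites with summits at most 5 kb apart, 88 (31.5%) had opposite orders in the lists, and 48 (17.2%) shifted by at least as much as SVP. The median shift was 1.28-fold.

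**Figure D2:**
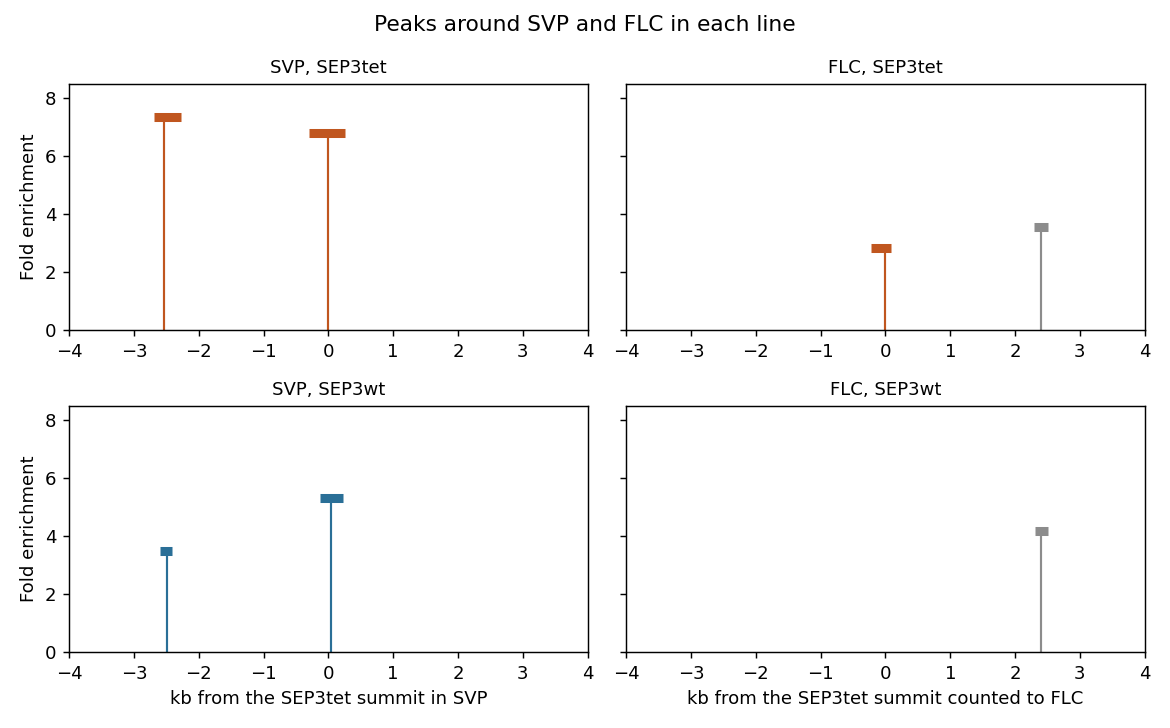
Peaks around SVP (left) and FLC (right) in SEP3tet (upper row) and SEP3wt (lower row); the x axis is the distance in kb from the SEP3tet summit in the SVP gene body or from the SEP3tet summit counted to FLC, the y axis is fold enrichment, bars span the peak and thin lines mark summits. Coloured peaks are counted to the gene and grey ones are not; both SVP sites recur in both lines, while the FLC peak of fold 2.83 has no SEP3wt counterpart and the grey peak beside it has one.

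Among the 1726 pairs of shared peaks, the outer SVP site was one of those with a high SEP3tet fold beside its SEP3wt fold. Its fold in SEP3tet was 2.11 times that in SEP3wt, and 1.56% of pairs had a larger ratio. At the gene-body site the ratio was 1.27, and 44.0% of pairs had a larger one. The median ratio over all pairs was 1.23, with 0.749 and 1.89 as the 5th and 95th percentiles. Ranked by fold among these pairs alone, the outer site was 163rd in SEP3tet and 910th in SEP3wt, and the gene-body site was 237th in SEP3tet and 258th in SEP3wt. The lists were called separately with unknown depths, so these ratios describe the lists and not a measured change in binding.

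**Figure D3:**
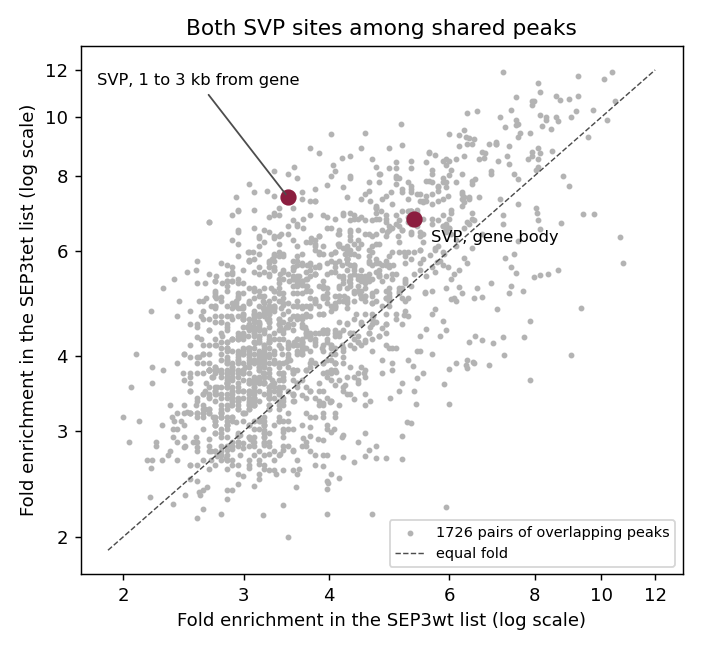
Fold enrichment in the SEP3tet list (y axis, log scale) against that in the SEP3wt list (x axis, log scale) for 1726 one-to-one pairs of overlapping peaks (grey), with the SVP pairs in dark red and a dashed line at equal fold. The gene-body pair lies within the main cloud at 6.78 and 5.33, and the outer pair at its upper left edge at 7.36 and 3.48.

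Both SVP peaks of each list overlapped a peak of the other by at least 1 bp, beside 53.3% of all SEP3tet and 84.7% of all SEP3wt peaks. Counting FLC, 2 of 3 SEP3tet peaks and 2 of 2 SEP3wt peaks of the repressor genes were shared.

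FLC, the vernalization-responsive repressor, had 1 weak peak in SEP3tet and none in SEP3wt. The SEP3tet peak spanned 3181710 to 3182017 of chromosome 5 (308 bp), with its summit 1 to 3 kb from FLC. It had a fold of 2.83 and a −log10 q of 3.14, rank 3084 of 3601. Among all peaks, 14.4% of SEP3tet peaks had a fold as low or lower, and 17.8% a −log10 q as low or lower. Of the 518 SEP3tet peaks with such a fold, 187 (36.1%) overlapped a SEP3wt peak, and the FLC peak was among the others. Its nearest gene was not FLC but AT5G10150, within 1 kb of the summit.

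A second peak near FLC lay outside the 3-kb window and was found in both lines. It spanned 3184236 to 3184447 in SEP3tet, with a fold of 3.55 and a −log10 q of 5.77. In SEP3wt it spanned 3184246 to 3184442, with a fold of 4.19 and a −log10 q of 9.64. The summits of this outside peak were 2 bp apart between lines and lay 2405 bp (SEP3tet) and 2403 bp (SEP3wt) from the summit counted to FLC. Its nearest gene in both lines was again AT5G10150. Under the 3-kb rule FLC has a peak in SEP3tet alone, while the SEP3wt peak closest to FLC is a shared one that the rule leaves out. No summit lay in the FLC gene body in either line.

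FLM, which acts with SVP, had no summit in its body or its 3-kb flanks in either line. It lay in a stretch without any peak of 64.2 kb in SEP3tet and 119 kb in SEP3wt. The flanking SEP3tet peaks, at folds of 3.70 and 2.98, were nearest to ACR3 and AT1G77160. The flanking SEP3wt peaks, at folds of 3.81 and 3.10, were nearest to IDL5 and AT1G77280. Stretches at least as long held 45.2% of protein-coding genes in SEP3tet and 39.0% in SEP3wt.

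MAF2, MAF3, MAF4 and MAF5 are 4 consecutive protein-coding genes on chromosome 5 and share 1 genomic setting, so they are not independent observations. All 4 lay in a single stretch without a peak, 76.4 kb long in SEP3tet and 201 kb in SEP3wt. The SEP3tet peak closest to the cluster, at 25976846 to 25977090 of chromosome 5, was beyond 3 kb of MAF2. It had a fold of 4.04 and a −log10 q of 8.19, was nearest to AT5G65040 and overlapped no SEP3wt peak. On the other side the next SEP3tet peak had a fold of 5.48 and was nearest to AT5G65207. The peaks that flanked the cluster in SEP3wt had folds of 3.39 and 5.17. Stretches at least as long held 38.6% of genes in SEP3tet and 19.9% in SEP3wt. Stretches as long as those around FLM and the MAF cluster were shared with 5451 or more of the 27444 genes, counting each line apart.

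**Figure D4:**
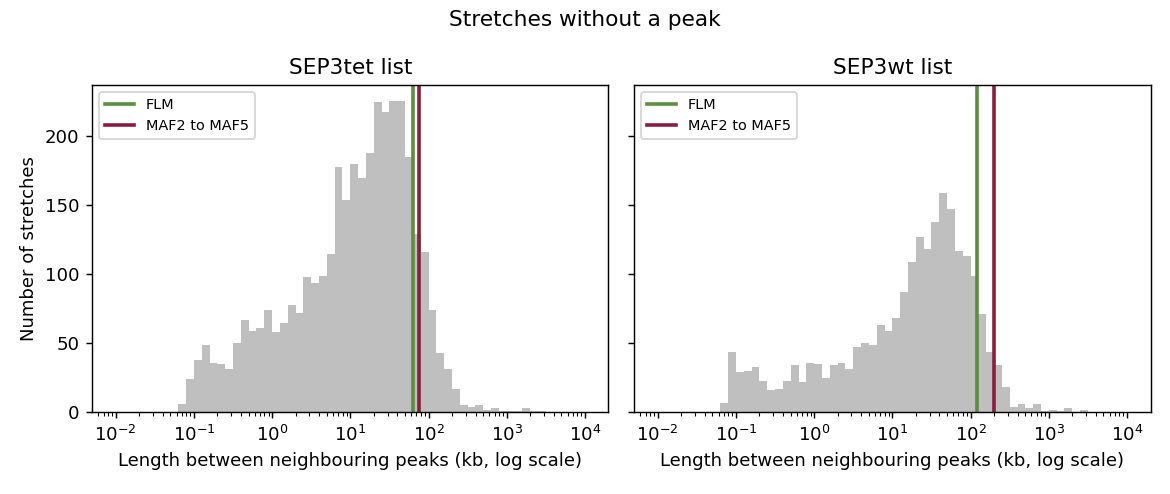
Number of stretches between neighbouring peaks (y axis) by their length in kb (x axis, log scale) in SEP3tet (left) and SEP3wt (right), with lines at the stretches that hold FLM and MAF2 to MAF5. The FLM stretch is 64.2 kb in SEP3tet and 119 kb in SEP3wt, and the MAF2 to MAF5 stretch 76.4 kb and 201 kb; all lie in the right part of the distributions, where long stretches also hold many genes.

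The other genes of the pathway were counted in the same way, in lists whose members were chosen with earlier results of these data known. Genes that activate FLC had a summit for 4 of 16 in SEP3tet and 4 of 16 in SEP3wt, and these were the same 4: FRI, which raises FLC transcription, FES1, which acts with FRI, the histone methyltransferase gene EFS, and HUB2. This is 25.0% of the list in each line, beside 21.2% of all protein-coding genes in SEP3tet, 13.7% in SEP3wt and 12.4% in both. FRI had a fold of 4.23 in SEP3tet and 4.41 in SEP3wt, within 1 kb of the gene. FES1, with folds of 4.81 in SEP3tet and 3.20 in SEP3wt, and EFS, with 5.00 in SEP3tet and 5.11 in SEP3wt, had their strongest summits nearest to a neighbouring gene. HUB2, a histone ubiquitin ligase gene, had a fold of 5.72 in SEP3tet and 6.36 in SEP3wt.

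Genes that silence FLC, in the autonomous and vernalization pathways, had a summit for 2 of 17 in SEP3tet and 1 of 17 in SEP3wt. FCA, an RNA-binding protein gene of the autonomous pathway, had a SEP3tet peak of fold 4.28 within 1 kb and none in SEP3wt. VAL1, a B3-domain repressor gene that brings Polycomb silencing to FLC, had a fold of 2.83 in SEP3tet and 2.89 in SEP3wt, with the summit nearest to another gene. These are 11.8% of the silencers in SEP3tet and 5.88% in SEP3wt, beside backgrounds of 21.2% and 13.7%; no list was tested.

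The flowering genes that act downstream of SVP and FLC, or beside them, had a summit for 12 of 18 in SEP3tet and 11 of 18 in SEP3wt, with 10 in both. These are 66.7% of the list in SEP3tet and 61.1% in SEP3wt. Beside them stand 21.2% and 13.7% of all protein-coding genes, and 12.4% with a summit in both. This list too was chosen with earlier results of these data known. Its distance from these shares was therefore open to selection and was not tested. The list also holds SEP3, the gene of the precipitated factor, and the floral gene AP1, each with 3 summits in each line. Both lines carry a SEP3 transgene labelled with the SEP3 promoter. Signal from the transgene therefore cannot be told apart from that of the SEP3 locus, which the counts include. SNZ and TOE1 had a summit in both lines, and LFY in SEP3tet alone. SOC1, the flowering promoter repressed by SVP and FLC, had folds of 9.91 in SEP3tet and 7.50 in SEP3wt for its strongest peak, which was nearest to AT2G45670. FD, whose product works with FT, had 4.47 in SEP3tet and 2.83 in SEP3wt. TEM1 and TEM2, repressors of FT, had 5.63 and 4.18 in SEP3tet and 3.56 and 4.03 in SEP3wt. SPL5, SPL4 and SPL15 encode SPL factors that promote flowering; SPL5 had 8.04 in SEP3tet and 6.91 in SEP3wt, SPL4 a SEP3tet peak of 2.78 alone, and SPL15 a SEP3wt peak of 2.72 alone. SMZ, an AP2-like repressor gene, had 7.79 in SEP3tet and 5.66 in SEP3wt. As with the outer SVP peak, the strongest peaks of SOC1, FD, TEM2, SPL5, SPL15, SMZ, SNZ and SEP3 were nearest to a neighbouring gene. The 5 without a summit in either line, named after their values were seen, were FT, TSF, AGL24, SPL3 and GA20OX2; AGL24 is the closest relative of SVP. The strongest SVP fold lay below those of SOC1, SPL5, SMZ and SNZ in both lists, with SNZ at 7.99 in SEP3tet and 8.81 in SEP3wt. It also lay below that of SEP3 in SEP3tet alone and below that of AP1 in SEP3wt alone.

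**Figure D5:**
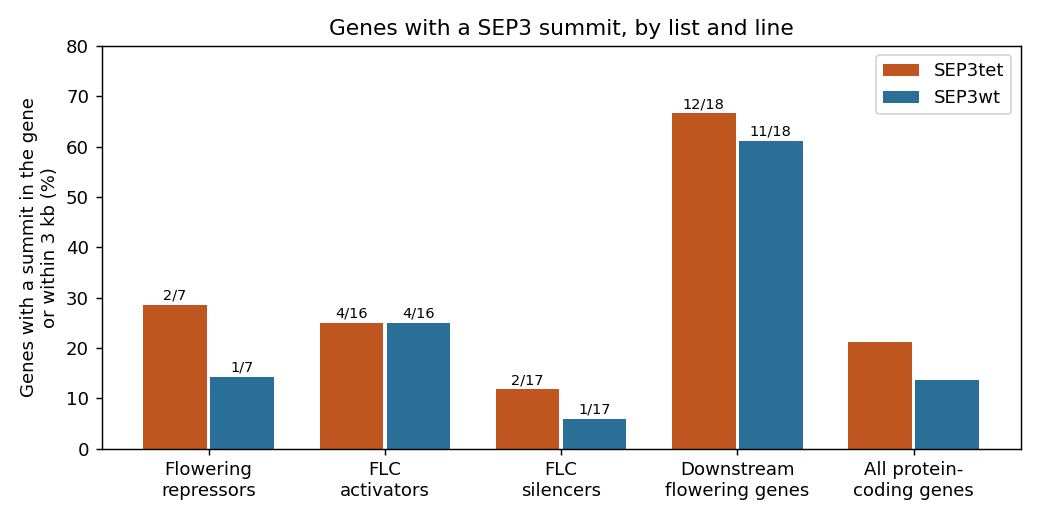
Share of genes with a summit inside them or in their 3-kb flanks (y axis, percent) for the flowering repressors, the other lists and all protein-coding genes (x axis), with SEP3tet bars left of SEP3wt bars and counts above the bars. The repressors reach 2 of 7 in SEP3tet and 1 of 7 in SEP3wt beside 21.2% and 13.7% of all genes. The downstream flowering genes, a list that includes SEP3 and AP1, reach 12 of 18 and 11 of 18. The lists were chosen with earlier results of these data known, and none was tested.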

How the data were processed

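The authors deposited 1 peak list for each line, tied by the labels to its ChIP samples. The submitters' processing notes name MACS2 2.2.7.1, Bowtie2 2.2.5, Trimmomatic 0.36 and deepTools, and build TAIR10. The sources used here do not say how replicates were combined or whether the mock was the control. Each deposited peak has a fold ratio over background and a −log10 q, taken to be so from the MACS2 layout. The deposited display score was not used further.

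Gene names and neighbourhoods came from a RefSeq gene table (TAIR10.1), whose coordinates are not printed; all 7 members and all listed genes matched by locus. The table gives no strand, exon or UTR, and no sequence was used. As a check of both builds, 39.8% of SEP3tet and 45.3% of SEP3wt summits lay in gene bodies, against 59.7 to 64.0% and 58.5 to 64.0% with summits shifted by 2 to 20 kb. Positions count from 1. Scripts used Python 3.11.15 and pandas 2.3.3 and were tested on simulated data with planted summits. Members, lists and alternatives were chosen with earlier results of these data known. Named genes are all members and up to 8 targets per other list in list order, with SEP3, AP1, SNZ, TOE1 and LFY in addition. No test was made.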

Additional observations from a re-analysis of the deposited data

How the results depend on the processing

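SVP was counted in both lines under every setting tried; the FLC count of SEP3tet was not. SVP alone, 1 of the 7 genes, had a SEP3tet summit with a window of 1 kb (12.3% of all genes) or gene bodies alone (4.53%). The same held with the nearest gene only (10.8%) and for peaks with −log10 q from 5 (14.7%) or 10 upwards (7.76%). It also held with the SEP3tet list cut to as many peaks as SEP3wt, kept by −log10 q and then by fold (14.6%). With the whole peak interval in place of the summit the counts were 2 in SEP3tet and 1 in SEP3wt, beside 22.0% and 14.3% of all genes. Shared SEP3tet peaks of the members numbered 1 with −log10 q from 10 upwards. They also numbered 1 with an overlap of at least 50% of both peaks, since 182 bp of the 423-bp outer SVP peak overlapped. The share of all peaks was not measured under these stricter settings, so these counts cannot be set against other peaks. FLC activators numbered 2 of 16 in each line with a window of 1 kb (12.3% of all genes in SEP3tet, 7.79% in SEP3wt). The count was the same with the nearest gene only (10.8% and 6.89%). With −log10 q from 10 upwards they numbered 3 in each line (7.76% and 4.60%). FLC silencers numbered 1 in SEP3tet and 0 in SEP3wt with either setting, and 0 in both lines with −log10 q from 10 upwards (7.76% and 4.60%). Downstream flowering genes in SEP3wt, of 18, numbered 9 with a window of 1 kb (7.79%) and 6 with the nearest gene only (6.89%). They numbered 7 there with −log10 q from 10 upwards (4.60%). In SEP3tet the same 3 settings gave 11 (12.3%), 10 (10.8%) and 9 (7.76%). The ratio of the outer to the gene-body SVP peak, taken over −log10 q in an alternative chosen after seeing the data, was 1.15 in SEP3tet and 0.363 in SEP3wt. No paired analysis was possible because each line has 1 peak list and no values per replicate; for the same reason no replicate could be left out. Depth is unknown, so weak peaks such as that of FLC, and the lack of peaks at FLM and MAF2 to MAF5, depend on the authors' calling threshold.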
